A study of Arabidopsis thaliana with 6 samples.

Results

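The genes described here encode 5 plasma membrane, vacuolar or plastid transporters of *Arabidopsis thaliana*, namely *SULTR3;1* (AT3G51895), *GTR1* (AT3G47960), *OCT5* (AT1G79410), *NRT2.5* (AT1G12940) and *IRT1* (AT4G19690). They were chosen as named transporters of sulfate, glucosinolates, organic cations, nitrate and iron, each with 1 probe set among the 22746 probe sets of the Affymetrix ATH1 array. The choice used no measured value, but it was made with earlier results of these data known. The sulfate and iron transporter genes also stand in a short list of genes that the study selected on these same samples. Their direction and size here are therefore not independent evidence.

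Whole Col-0 wild-type seedlings, 14 days old and grown in liquid MS medium, were treated for 30 min with a purified chitin 4mer at 100 µg/mL. Mock seedlings of the same ecotype, age and medium received the same volume of water for the same time. Each group had 3 independent biological replicates, with 1 array per replicate. RNA came from pooled whole seedlings, in which fewer cells of a type and less RNA per cell cannot be told apart.

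Plants take up sulfate, nitrate and iron through dedicated membrane proteins of the root and move them, with the products made from them, between organs and compartments. Transcript levels of many of these transporters follow the nutrient supply. Glucosinolates are sulfur-rich defense compounds of the cabbage order, and they reach distant tissues through importers of the nitrate and peptide transporter family (NPF). Chitin is a component of fungal cell walls, and plant cells perceive its longer chains as a sign of attack. The study links short oligomers, by contrast, to plant responses unrelated to stress.

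The signal of each probe set was divided by the median signal of its array, and the result is called the level, so that a level of 1 is the array's median probe set. Array medians lay between 197.9 and 211.6 signal units. The mock replicate 1 array stood apart from the others. Over the 14505 probe sets with a mean level of at least 0.5, its correlation with the other arrays was 0.952 to 0.960, against 0.984 to 0.993 among the other arrays. Differences of named genes that moved by over 1.5 times without it are therefore also given without it. Between groups, 23 of 22746 probe sets (0.101%) passed an adjusted p of 0.05 in limma, and 47.7% of all probe sets were higher in 4mer seedlings.

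The transporters fell into 3 that were well measured and 2 that were dim. *SULTR3;1*, *GTR1* and *OCT5* had a level of at least 0.25 on all 6 arrays, and on each of them every 4mer array lay above every mock array. *NRT2.5* reached 0.25 on 4 arrays and *IRT1* on 0 arrays, and their groups overlapped. All 5 log2 differences between 4mer and mock seedlings were positive, and 0 of the 5 passed an adjusted p of 0.05 in limma. At an unadjusted p of 0.05 in limma, 3 of the 5 were higher in 4mer seedlings, against 4.54% of all probe sets that were higher and 6.86% that were lower. The 5 were chosen with earlier results of these data known, so counts over them are not independent evidence. Groups without overlap and higher in 4mer seedlings made up 7.86% of all probe sets, and 8.85% of the 15874 probe sets that were well measured on every array. The opposite direction, with every 4mer array below every mock array, was seen in 12.5% of all probe sets.

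**Figure D1:**
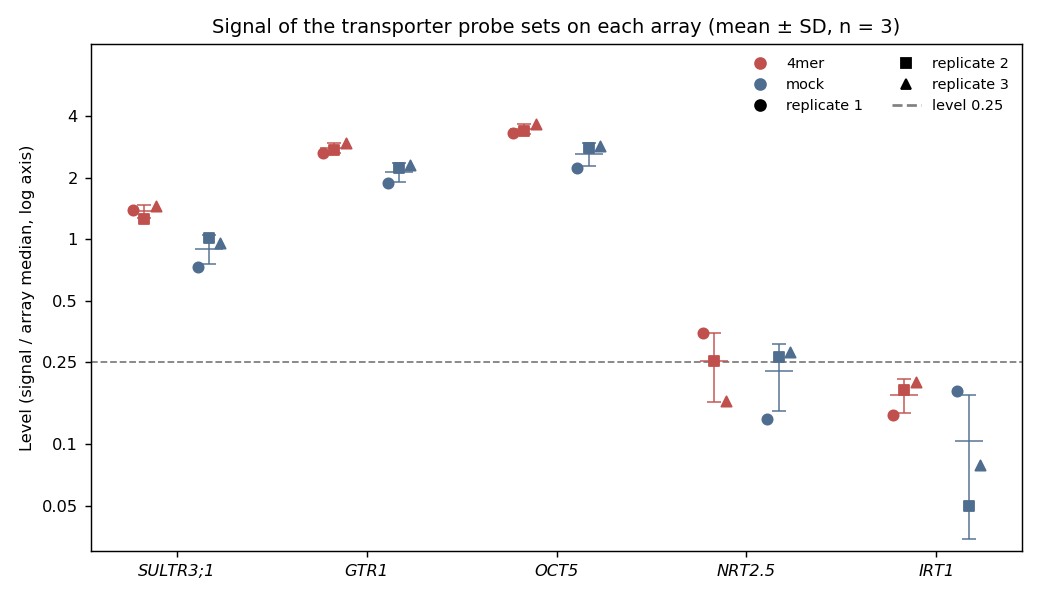
Level of each transporter on each array, as signal divided by the array median on a log axis, with 3 4mer arrays left of 3 mock arrays for each gene. Bars are the mean and SD of each group, and the dashed line is the level of 0.25 that separates well-measured from dim genes. For *SULTR3;1*, *GTR1* and *OCT5* all 4mer points lie above all mock points, while the points of *NRT2.5* and *IRT1* are dim and interleave.

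The sulfate transporter gene *SULTR3;1* had the largest difference among the well-measured transporters. It belongs to group 3 of the sulfate transporter family, several of whose members act at the chloroplast. Its level was 1.39, 1.26 and 1.46 in 4mer seedlings (replicates 1, 2 and 3), against 0.733, 1.01 and 0.956 in mock seedlings. The lowest 4mer array was 1.24 times the highest mock array, and the lowest value of all was that of mock replicate 1. The mean was 1.37 ± 0.105 in 4mer seedlings and 0.900 ± 0.147 in mock seedlings (SD, n = 3 each). The log2 difference was 0.62 (SE 0.15, 95% interval 0.27 to 0.97), a fold of 1.53 (1.20 to 1.96), with an adjusted p of 0.207 in limma over all probe sets. A two-sided exact permutation test of the 3 against 3 arrays gave p = 0.1, the smallest value that this design allows. Relative to the median of the mock arrays, the 4mer arrays stood at 1.46, 1.31 and 1.53. Without mock replicate 1 the log2 difference was 0.48 and the fold 1.39, with an adjusted p of 0.0812.

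*GTR1* encodes the glucosinolate importer NPF2.10, which acts with its relative GTR2 in moving glucosinolates into the phloem. Its level was 2.65, 2.74 and 2.96 in 4mer seedlings, against 1.88, 2.22 and 2.30 in mock seedlings. The groups did not overlap, with the lowest 4mer array at 1.15 times the highest mock array, and mock replicate 1 was again the lowest array. The mean was 2.78 ± 0.159 in 4mer seedlings and 2.13 ± 0.220 in mock seedlings (SD, n = 3 each). The log2 difference was 0.39 (SE 0.10, 95% interval 0.15 to 0.63), a fold of 1.31, with an adjusted p of 0.245 in limma. The two-sided exact permutation p was 0.1. Without mock replicate 1 the log2 difference was 0.30 and the adjusted p 0.0973.

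*OCT5* belongs to the organic cation and carnitine transporter family, of which it and OCT4 sit at the vacuolar membrane. Its level was 3.32, 3.37 and 3.68 in 4mer seedlings, against 2.23, 2.78 and 2.85 in mock seedlings. Here too the groups did not overlap, the lowest 4mer array being 1.16 times the highest mock array, and mock replicate 1 was lowest. The mean was 3.46 ± 0.195 in 4mer seedlings and 2.62 ± 0.341 in mock seedlings (SD, n = 3 each). The log2 difference was 0.41 (SE 0.11, 95% interval 0.15 to 0.66), a fold of 1.33, with an adjusted p of 0.257 in limma and a two-sided exact permutation p of 0.1. Without mock replicate 1 the log2 difference was 0.29 and the adjusted p 0.0867.

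*NRT2.5* encodes a high-affinity nitrate transporter known from plants starved of nitrogen. Its level was 0.348, 0.253 and 0.161 in 4mer seedlings, against 0.132, 0.267 and 0.281 in mock seedlings. The groups overlapped over most of their range, and the highest array was 2.16 times the lowest within 4mer seedlings and 2.12 times within mock seedlings. The log2 difference was 0.17 (SE 0.41, 95% interval −0.78 to 1.12), with an adjusted p of 0.907 in limma and a two-sided exact permutation p of 0.7. The sign of this difference rested on single arrays, since it was −0.18 without mock replicate 1 and −0.09 without 4mer replicate 1.

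*IRT1* encodes the main iron uptake transporter of the root epidermis, which is induced when iron is short. It was the dimmest of the 5, with 83.9% of all probe sets brighter. Its level was 0.138, 0.184 and 0.20 in 4mer seedlings, against 0.181, 0.050 and 0.0791 in mock seedlings. Mock replicate 1 lay inside the range of the 4mer arrays, and the other mock arrays lay below all of them. The log2 difference was 0.94 (SE 0.51, 95% interval −0.23 to 2.11), with an adjusted p of 0.522 in limma and a two-sided exact permutation p of 0.2. Its size depended on the setting at this low signal, with 0.52 when mock replicate 2 was left out and 0.28 when an offset of 0.25 was added to the level.

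For *IRT1* the array that stood apart carried the overlap. The highest mock array was 3.63 times the lowest, and 1.58 times without mock replicate 1. Without that array the log2 difference was 1.45 (95% interval 0.50 to 2.40), the adjusted p in limma was 0.133, and every 4mer array was above both remaining mock arrays. With that array left out, 4 of the 5 transporters had groups that did not overlap with 4mer higher, beside 16.5% of all probe sets. In the same setting 0 of the 5 passed an adjusted p of 0.05, beside 1.49% of all probe sets.

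**Figure D2:**
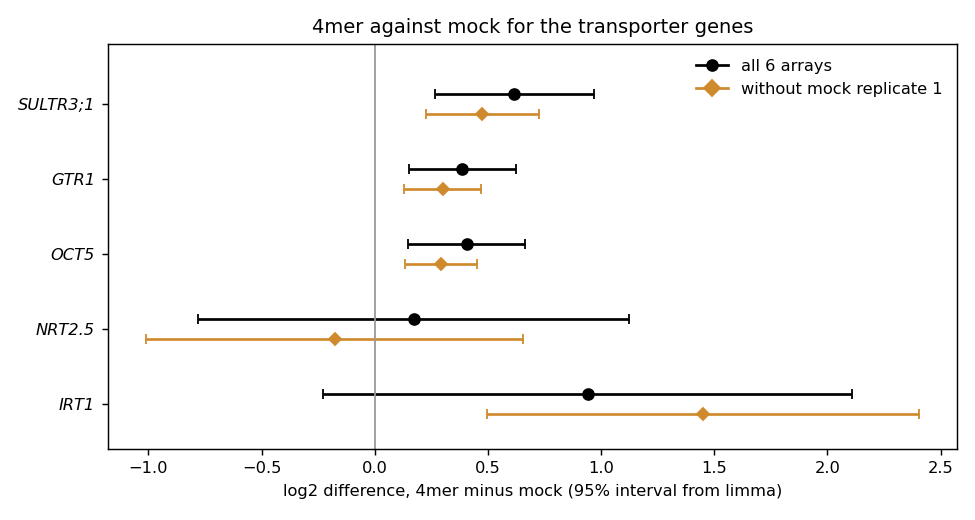
Log2 difference of each transporter, 4mer minus mock, with its 95% interval from limma, for all 6 arrays and without mock replicate 1. The intervals of *SULTR3;1*, *GTR1* and *OCT5* lie above 0 in both settings, that of *NRT2.5* spans 0 in both, and that of *IRT1* clears 0 only without mock replicate 1.

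Mock replicate 1 was the lowest mock array for *SULTR3;1*, *GTR1*, *OCT5* and *NRT2.5* and the highest for *IRT1*. Over all probe sets it was the lowest mock array in 33.7% and the highest in 51%. Among the 1405 well-measured probe sets with every 4mer array above every mock array, it was the lowest mock array in 58.9%. The order seen in the 3 well-measured transporters was thus the more frequent one among probe sets of that pattern.

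The contrast in spread between well-measured and dim transporters went with brightness, by which the 2 classes were defined. The residual SD of the log2 level within groups was 0.192 for *SULTR3;1*, 0.123 for *GTR1* and 0.150 for *OCT5*, against 0.582 for *NRT2.5* and 0.696 for *IRT1*. Probe sets with a mean level of 0.1 to 0.2, where *IRT1* lies, had a median residual SD of 0.675, and 35.2% of them differed by 1.5-fold or more in either direction. At a mean level of 0.2 to 0.3, where *NRT2.5* lies, the median residual SD was 0.402 and the share past 1.5-fold was 17.4%. The upper quartile of the residual SD there was 0.560, so *NRT2.5* varied more than most probe sets of its brightness. At 1 to 2, the range of the sulfate transporter gene, these values were 0.164 and 2.83%, and at 2 to 4, the range of *GTR1* and *OCT5*, they were 0.138 and 2.33%. The fold of 1.53 of the sulfate transporter gene was therefore among the larger ones at its brightness, while folds past 1.5 were common at the brightness of *IRT1*. The study listed both genes as induced by over 1.5-fold on these same samples, so their size here is not independent evidence. Without mock replicate 1 the fold of *SULTR3;1* was 1.39.

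**Figure D3:**
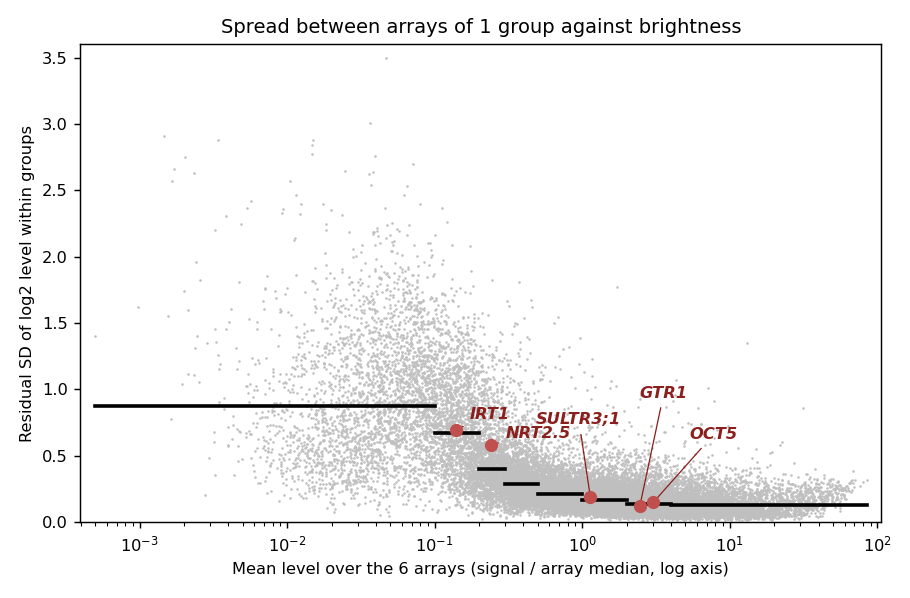
Residual SD of the log2 level within groups against the mean level over the 6 arrays (log axis), with 1 grey point per probe set, black bars for the median of each level range, and the 5 transporters in red. *IRT1* and *NRT2.5* lie where the spread is wide, and *SULTR3;1*, *GTR1* and *OCT5* where it is narrow.

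Across the arrays *GTR1* and *OCT5* were nearly parallel. Their levels had a Pearson correlation of 0.996 over the 6 arrays, and the ratio of *OCT5* to *GTR1* stayed between 1.18 and 1.25. After the group means were removed the correlation over the 6 arrays was 0.990. With the group means kept, it was 0.998 over the 5 arrays without mock replicate 1. Among 7841 probe sets of mean level 0.5 or more that name a single gene, *OCT5* was the most alike to *GTR1*, and *GTR1* the second most alike to *OCT5*. Without mock replicate 1, *OCT5* ranked 4 for *GTR1*. All these correlations share the same 6 arrays and are given as a description.

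Other genes followed the well-measured transporters as closely over the same 6 arrays, and since they were picked for that likeness their own differences are not read as results. Nearest to *SULTR3;1* were AT4G25620 (correlation 0.994), AT1G02660 (0.992) and the plastid gene *atpA* (0.992), which encodes a subunit of the chloroplast ATP synthase. After *OCT5*, those nearest to *GTR1* were AT3G15760 (0.991) and AT2G39710 (0.989). For *OCT5* they were AT2G39710 (0.996) and, after *GTR1*, AT1G27290 (0.985). *SULTR3;1* itself correlated at 0.971 with *GTR1* and 0.978 with *OCT5*, which ranked 33 and 13 for it among the 7841 probe sets. Without mock replicate 1 the correlations were 0.931 and 0.950, and the ranks 248 and 153. The dim pair did not move together, with a correlation of −0.51 between *NRT2.5* and *IRT1* over the 6 arrays. Correlations of *IRT1* with *GTR1*, *OCT5* and *SULTR3;1* were 0.35, 0.26 and 0.27, or 0.97, 0.96 and 0.86 without mock replicate 1. Those of *NRT2.5* with the same genes were 0.31, 0.37 and 0.40, or −0.53, −0.53 and −0.35 without that array.

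The ratio between 2 probe sets on 1 array shows unequal change without any scaling between arrays. The log2 ratio of *SULTR3;1* to *GTR1* was higher by 0.23 in 4mer seedlings (SE 0.09), with no overlap between groups and a two-sided exact permutation p of 0.1. The log2 ratio of *OCT5* to *GTR1* differed by 0.02 (SE 0.03, exact permutation p = 0.6).

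**Figure D4:**
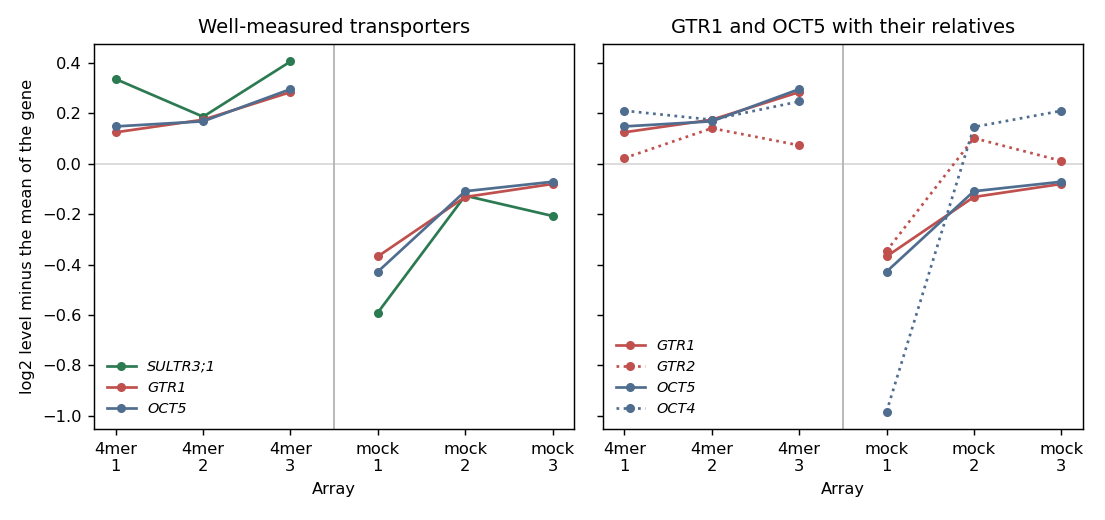
Log2 level minus the gene's mean over the 6 arrays, on each 4mer and each mock array. The left panel shows *SULTR3;1*, *GTR1* and *OCT5*, and the right panel sets *GTR1* and *OCT5* (solid) beside *GTR2* and *OCT4* (dotted). Mock replicate 1 is the lowest array of every gene shown, and lies furthest below the other arrays for *OCT4*. Lines join arrays of a group only to guide the eye.

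The relatives of these transporters were then compared. *GTR2*, the partner of *GTR1*, had levels of 9.54, 10.4 and 9.88 in 4mer seedlings, against 7.39, 10.1 and 9.47 in mock seedlings. Its groups overlapped, and the log2 difference was 0.16 with an adjusted p of 0.652 in limma, or 0.022 without mock replicate 1. The log2 ratio of *GTR1* to *GTR2* was higher by 0.23 in 4mer seedlings (SE 0.08), on every 4mer array above every mock array, with a two-sided exact permutation p of 0.1. *OCT4*, the vacuolar relative of *OCT5*, had levels of 1.38, 1.35 and 1.42 in 4mer seedlings, against 0.605, 1.32 and 1.38 in mock seedlings. Only mock replicate 1 departed from the rest, and the log2 difference of 0.42 (adjusted p 0.616) became 0.03 without it. The log2 ratio of *OCT5* to *OCT4* differed by −0.01 with all arrays and by 0.26 without mock replicate 1. *OCT1* was dim on every array.

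Among the measured sulfur genes, the largest difference in the direction of *SULTR3;1* was that of *BGLU28*, a beta-glucosidase gene used as a marker of sulfur deficiency. Its level was 1.09, 1.23 and 1.26 in 4mer seedlings, against 0.654, 0.585 and 0.674 in mock seedlings. The groups were well apart, and mock replicate 1 was not the lowest array. The log2 difference was 0.90 (SE 0.14), with an adjusted p of 0.0610 in limma, or 0.0220 without mock replicate 1. The log2 ratio of *SULTR3;1* to *BGLU28* differed by −0.29 (SE 0.20, exact permutation p = 0.3), or by −0.45 without mock replicate 1.

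Of 28 listed genes of sulfate assimilation and sulfur deficiency, 4 were measured under a name, with 2 higher and 2 lower, and 0 called. Besides *BGLU28* they were the ATP sulfurylase genes *APS3* (0.21, adjusted p 0.377, no overlap) and *APS4* (−0.15, adjusted p 0.503, no overlap), and the sulfite reductase gene *SIR* (−0.014, or −0.040 without mock replicate 1), all as log2 differences with p-values from limma. None of the 13 other sulfate transporter names was measured under a name, so *SULTR3;1* could not be set beside its family. Of 41 names of glucosinolate synthesis, 6 were measured, with 2 higher, 4 lower and a median log2 difference of −0.09. *BCAT4*, whose product starts the chain elongation of methionine, had a log2 difference of −0.25 (adjusted p 0.387), with every 4mer array below every mock array. *GSTU20* (−0.15), *AOP3* (−0.34, dim) and the transcription factor gene *MYC3* (0.12, or −0.077 without mock replicate 1) had groups that overlapped.

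None of the 28 names listed as nitrate transporters or channels, and none of the 38 listed for nitrate assimilation, was measured under a name. Other genes of the nitrate and peptide transporter family were listed apart. The NPF family, to which GTR1 belongs, had 9 measured genes of 51 names, with 5 higher, 4 lower, 0 called and a median log2 difference of 0.26, or 0.15 without mock replicate 1. Those with the smallest p were *NPF6.2* (0.26, adjusted p 0.464, and 0.15 without mock replicate 1), *NPF5.13* (0.30), *NPF4.4* (0.29) and *NPF4.1* (0.42), as log2 differences, of which *NPF5.13* and *NPF4.4* had groups without overlap. *NPF3.1*, named after its values were seen, had a log2 difference of −0.25, and of −0.47 with an adjusted p of 0.0454 in limma without mock replicate 1.

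The iron genes beside *IRT1* had differences in both directions, and 0 passed an adjusted p of 0.05 in limma. The relatives of *IRT1* in the ZIP family of metal transporters were represented by *ZIP9* (log2 difference 0.11) and *ZIP6* (−0.04), both with overlapping groups. With mock replicate 1 left out the difference was 0.23 for *ZIP9* and 0.15 for *ZIP6*. Of 61 names of iron homeostasis, 5 were measured, with 2 higher, 3 lower and a median log2 difference of −0.19, or −0.045 without mock replicate 1. *ILR3*, a bHLH activator of the iron-deficiency response, had levels of 8.70, 7.52 and 9.42 in 4mer seedlings, against 16.1, 10.2 and 9.92 in mock seedlings. Its groups did not overlap, with 4mer lower, and among the mock arrays mock replicate 1 was by far the highest. The log2 difference of −0.47 (adjusted p 0.409) was −0.24 without it. Its partner genes *BHLH104* and *BHLH34* had log2 differences of −0.19 (no overlap, and −0.045 without mock replicate 1) and 0.28, and the dim *BHLH101* had −0.81 with overlapping groups.

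**Figure D5:**
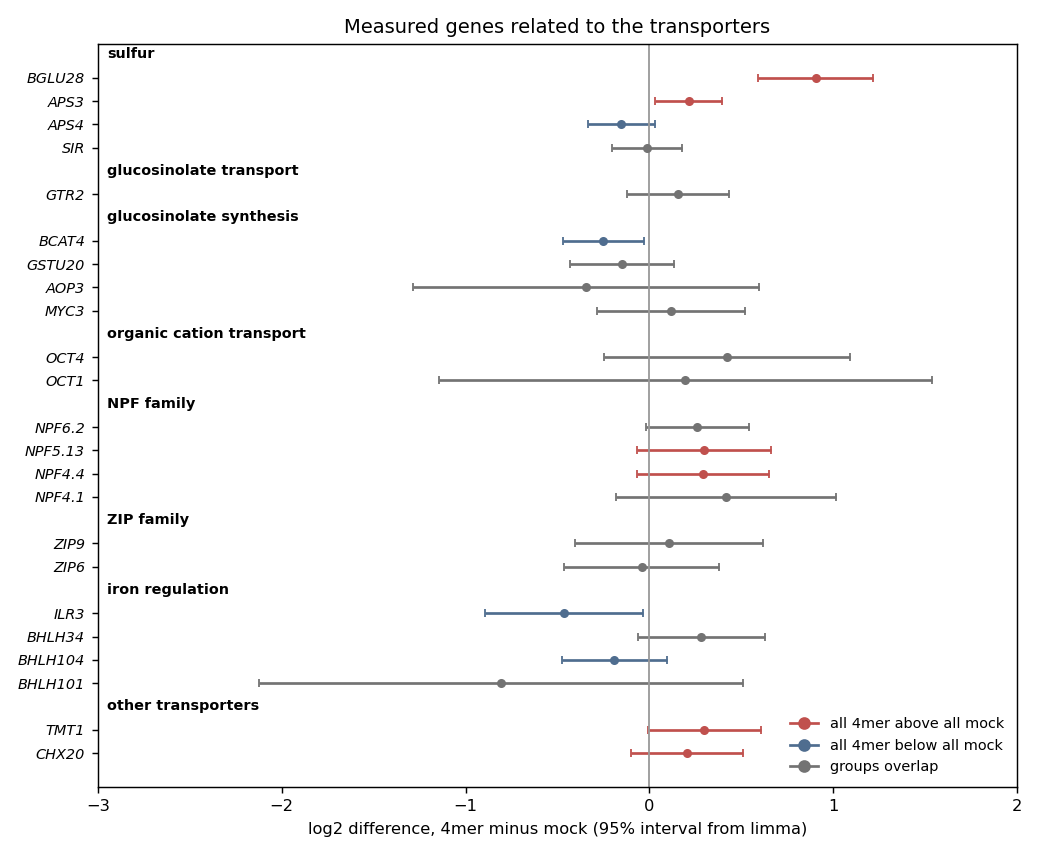
Log2 difference, 4mer minus mock, with the 95% interval from limma, for measured genes related to the transporters, grouped by role. Lists with more than 4 measured genes show only the 4 with the smallest unadjusted p. Red marks genes with every 4mer array above every mock array, blue the opposite and grey overlapping groups. *BGLU28* has the highest difference, 0.90, and *BHLH101* the lowest, −0.81, with an interval that spans 0.

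In all, 15 measured genes carry the word transporter or exchanger in their name, *GTR2*, *OCT4* and *OCT1* among them, of which 10 were higher and 5 lower, with 0 called and a median log2 difference of 0.08. The tonoplast sugar transporter gene *TMT1* (log2 difference 0.30, adjusted p 0.453 in limma) and the cation/proton exchanger gene *CHX20* (0.20, adjusted p 0.595) had every 4mer array above every mock array. These differences were 0.14 for *TMT1* and 0.078 for *CHX20* without mock replicate 1. Counting each gene once, 41 related genes were measured, of which 22 were higher and 19 lower, with a median log2 difference of 0.03, against −0.01 over all probe sets. Of the 41, 0 passed an adjusted p of 0.05 in limma, while 2 were higher and 2 lower at an unadjusted p of 0.05, beside 4.54% and 6.86% of all probe sets. Groups without overlap were seen in 6 that were higher in 4mer seedlings and 4 that were lower, beside 7.86% and 12.5% of all probe sets. Without mock replicate 1, 2 of the 41 passed, namely *BGLU28* and *NPF3.1*, beside 1.49% of all probe sets.

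The transporters act in different organs, so markers of root and shoot were measured on the same arrays. Of 12 root marker names 4 were measured, and their summed level was 54.9 to 64.3 in 4mer seedlings and 54.0 to 80.3 in mock seedlings. Among them the root hair expansin gene *EXPA18* had a log2 difference of −0.44 and the peroxidase gene *PRX72* of 0.36, both with groups that did not overlap, while *EXPA7* (0.18) and *PYK10* (−0.083) overlapped. Leaving out mock replicate 1 gave 0.14 for *PRX72*, −0.19 for *EXPA7* and 0.12 for *PYK10*. The sum is mostly that of the bright *PYK10*, at 55.2, 49.6 and 58.7 in 4mer seedlings, against 76.2, 47.8 and 52.4 in mock seedlings, so it says little about the other root markers. Of 12 shoot marker names only *RCA*, the Rubisco activase gene, was measured, at 48.7 to 55.0 in 4mer seedlings and 47.8 to 67.4 in mock seedlings. *RCA* had a log2 difference of −0.028, or 0.14 without mock replicate 1. The part of organ composition in the transporter differences was not tested.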

How the data were processed

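The authors hybridized RNA of 6 seedling samples to ATH1 arrays and computed signals in MicroArray Suite 5.0, and the table they deposited holds that linear intensity for each of 22746 probe sets, with 1 to 4 zeros per array. Trimmed means (2% removed at each end) lay between 496.8 and 497.4, so a common scaling had been applied, whose target, like detection calls, is not given in the sources used here. No columns of values of other samples were found.

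Signals were floored at 0.01 and divided by the array median, following the methods, and log2 was taken. The 6 arrays were fitted in limma 3.58.1 under R 4.3.3 (lmFit, eBayes with a variance trend, no covariate), with p-values adjusted over all probe sets by Benjamini and Hochberg and called under 0.05. The methods name SAM without a threshold, so limma was used. The code was tested on simulated data. SDs are of levels before log2. The number of arrays limits the precision.

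Probe sets were named through the array's annotation table. Of them, 13513 name 1 gene, 503 several and 8730 are not listed, which leaves most related genes unnamed here. *SULTR3;1* and *IRT1* are among the last and were taken by probe set identifier. Related genes came from 10 lists with 303 names (10 symbols that match several genes were not used), and a TAIR10.1 gene table served for names only. Named in each list were all measured genes, or the 4 with the smallest unadjusted p where there were more than 4, and the 3 genes most correlated with each well-measured transporter. The members and lists were chosen with earlier results of these data known. The ratios between genes, the list of genes named transporter or exchanger, the ranges of brightness, and the counts and likeness without mock replicate 1 were added after the data were seen. Alternatives were other scalings, floors, filters, a replicate block and leaving out each array. The plots used matplotlib 3.10.9 and Python 3.11.15.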

Additional observations from a re-analysis of the deposited data

How the results depend on the processing

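The count of probe sets past an adjusted p of 0.05, 23 in limma with all arrays, was 10 with levels floored at 0.25, 59 over probe sets with a mean level of at least 0.5, and 2 without the variance trend. Leaving out 1 array gave 0 to 338, with 338 without mock replicate 1 and 0 or 1 without any other array, although 1614 to 2657 had an unadjusted p under 0.05 without one of those. The differences of *SULTR3;1*, *GTR1* and *OCT5* kept their direction in every setting that was run, at 0.48 to 0.71, 0.30 to 0.44 and 0.29 to 0.47 with 1 array left out and at 0.50 to 0.66, 0.35 to 0.43 and 0.37 to 0.44 otherwise, as log2 values. *NRT2.5* ranged from −0.18 to 0.47 with 1 array left out, and *IRT1* from 0.52 to 1.45. With an offset of 0.25 added to the level, the difference of *IRT1* was 0.28, and with a floor of 0.25 it had no value, since every array was at the floor. The dim transporters are not among the probe sets of mean level 0.5 or more.

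With the replicate number as a block, 0 probe sets passed in limma and 2287 had an unadjusted p under 0.05, and the adjusted p was 0.376 for *SULTR3;1*, 0.375 for *GTR1* and 0.363 for *OCT5*. The deviations of same-numbered arrays correlated at −0.043 to −0.034, and those of different numbers at −0.023 to 0.060, so the numbers do not pair the samples.

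Directions of genes near 0 also turned. With 1 array left out the log2 difference ranged from −0.050 to 0.022 for *SIR*, −0.077 to 0.25 for *MYC3*, −0.072 to 0.42 for *OCT1*, −0.024 to 0.23 for *ZIP9*, −0.15 to 0.15 for *ZIP6*, −0.19 to 0.37 for *EXPA7*, −0.22 to 0.12 for *PYK10* and −0.11 to 0.14 for *RCA*. With quantile scaling it was 0.042 for *SIR* and 0.029 for *RCA*, and with the signal as deposited 0.024 for *SIR* and 0.010 for *RCA*. The adjusted p of *BGLU28* was 0.0460 over probe sets with a mean level of at least 0.5. Apart from *BGLU28* there and without mock replicate 1, no transporter and no other named list gene followed across the settings passed the threshold. *NPF3.1* passed without mock replicate 1 and was not followed in the other alternatives. The genes picked for likeness were not followed in any. The cause of these changes was not tested. With 3 arrays per group an exact permutation test cannot go below 0.1, and the dim transporters are limited by their low signal.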
